A study of Mus musculus with 194 samples.

Results

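Arl4d, Gm13889, Tiparp and Plekhf1 were followed through the transcriptional response to cocaine in the mouse brain, as 4 genes of the 19363 in the deposited table of 3′ RNA-seq counts, and each was set beside Fos in the same mice. They were taken by name from the genes that the study lists as induced by cocaine in these libraries, so their rise in the dorsal striatum (DS), amygdala (Amy), nucleus accumbens (NAc) and limbic cortex (LCtx) chose them and is given as a description with no test. The lateral hypothalamus (LH), shifts of the 0 hr level between experiences, differences between structures or in the response between experiences, and the spread between mice of 1 condition were not used to choose them, except that Plekhf1 is listed for DS challenge mice alone, so its differences between DS experiences are values with no test. The mice were male C57BL/6OLAHSD animals of 6 to 7 weeks on arrival, and were habituated to saline injections for 3 days before cocaine at 20 mg/kg, i.p. In the acute experience, mice received a single dose and the 0 hr mice had never received cocaine (naive). In the repeated experience, mice received 5 daily doses and were taken after the last, and the 0 hr mice were taken on the day after the fourth dose. In the challenge experience, mice had received the 5 doses, spent 21 days in abstinence and then received another dose, and the 0 hr mice were abstinent animals with no dose on that day. The 0 hr mice came straight from their home cages and had no injection that day, so cocaine cannot be told apart from injection and handling in any change from 0 hr. The study does not say separately whether the naive mice had the days of saline. Tissue was taken at 0, 1, 2 or 4 hr, which gave 166 samples of 1 structure of 1 mouse and 15 programs (5 structures by 3 experiences) with 1 to 5 mice at each time. Each sample is dissected tissue that holds many cell types, so more RNA of a gene per cell and more cells that express it cannot be told apart.

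Fos encodes a subunit of the AP-1 transcription factor and is the classic immediate-early gene, transcribed within minutes of strong synaptic input and shut off soon after. The genes that rise with it also include regulators of membrane traffic and signaling. Arl4d encodes an ARF-like small GTPase that, when bound to GTP, recruits cytohesins, the exchange factors of ARF6, to the plasma membrane. Tiparp (also PARP7) encodes a mono-ADP-ribosyltransferase that is transcribed under the aryl hydrocarbon receptor and represses that receptor in turn. Plekhf1 encodes a protein with a PH domain and a FYVE domain, the latter a fold that binds the endosomal lipid PI3P. Gm13889 is a predicted gene model with a coding sequence and no established function.

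All 4 genes are annotated as protein coding on the GRCm38 build used for the counts. Arl4d is at chr11:101665541-101667832 on the plus strand with 2 exons and 603 coding bases, and Tiparp is at chr3:65528410-65555518 on the plus strand with 6 exons and 1971 coding bases. Plekhf1 is at chr7:38216972-38228016 on the minus strand with 2 exons and 837 coding bases, and Gm13889 is at chr2:93955810-93957201 on the minus strand with 1 exon and 738 coding bases. The 5′ end of Gm13889 lies within another gene model on the same strand, Gm27027, so reads there could belong to either. The sequences just upstream of the starts of the members and of Fos are shown next. RefSeq promoter windows on GRCm38.p6 were matched for 4 of the 5 genes, Fos included, and Gm13889 had no entry. Only the bases before the start are printed, up to 250 of them, 5′ to 3′ on the strand of the gene, for Arl4d at chr11:101665291-101665540, Tiparp at chr3:65528197-65528409, Plekhf1 at chr7:38228017-38228244 and Fos at chr12:85473640-85473889. Capitals mark the cAMP response element (CRE, TGACGTCA), its half-site (TGACG or CGTCA) and the core bound by the aryl hydrocarbon receptor (XRE core, GCGTG or CACGC).
Arl4d: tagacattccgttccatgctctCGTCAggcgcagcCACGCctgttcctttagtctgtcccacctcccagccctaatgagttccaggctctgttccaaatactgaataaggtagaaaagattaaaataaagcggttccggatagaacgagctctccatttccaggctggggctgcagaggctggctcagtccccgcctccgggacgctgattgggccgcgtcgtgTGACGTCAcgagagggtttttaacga
Tiparp: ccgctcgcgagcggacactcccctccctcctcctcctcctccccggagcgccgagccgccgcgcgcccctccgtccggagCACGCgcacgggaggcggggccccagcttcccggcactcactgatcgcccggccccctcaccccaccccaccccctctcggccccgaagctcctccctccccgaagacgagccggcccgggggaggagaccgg
Plekhf1: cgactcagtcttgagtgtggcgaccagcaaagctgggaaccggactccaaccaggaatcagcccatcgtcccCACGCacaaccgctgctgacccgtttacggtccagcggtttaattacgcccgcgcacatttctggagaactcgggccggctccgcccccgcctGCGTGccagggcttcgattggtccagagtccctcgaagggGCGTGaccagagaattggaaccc
Fos: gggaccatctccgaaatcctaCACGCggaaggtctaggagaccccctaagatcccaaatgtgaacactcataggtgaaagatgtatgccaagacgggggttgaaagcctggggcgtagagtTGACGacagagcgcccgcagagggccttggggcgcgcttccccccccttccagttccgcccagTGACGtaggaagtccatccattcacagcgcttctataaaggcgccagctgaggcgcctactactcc
The Arl4d window held a full CRE 26 to 19 bases before the start and a separate half-site 228 to 224 bases before it. A full CRE was found in 1.55% of the 32851 promoter windows searched on both strands, and a half-site, which every full CRE also contains, in 17.8%. The Fos window held half-sites 129 to 125 and 66 to 62 bases before the start and TATAAA 33 to 28 bases before it, letters found in 7.59% of windows. The Arl4d and Fos windows also held 1 XRE core each. The Tiparp window, with 78.4% G and C, held 1 XRE core, 133 to 129 bases before the start. The Plekhf1 window held XRE cores 156 to 152, 63 to 59 and 23 to 19 bases before the start, and 28.2% of all windows held at least 1. Neither Tiparp nor Plekhf1 had the letters of a CRE half-site in these windows, and no AP-1 site (TGANTCA, 6.75% of windows) or CArG box (1.47% of windows) was found in any of the 4. These are matches of letters, not sites shown to be bound.

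The 194 libraries held between 1193306 and 10367769 counts, with a median of 3296647.5, and levels are given as CPM (counts of a gene scaled to an equal library total). They came from 9 sequencing runs that partly coincided with structure and experience. Of the DS mice, 24 were sequenced in 2 runs, of which 1 (the shared run) held all experiences and the other differed between acute mice and the rest. Arl4d was higher in the shared run than in the other in 24 of 24 mice, by a median of 0.65 and a range of 0.38 to 1.16 on the log2 scale. Tiparp was higher in the shared run by a median of 0.86 in acute mice and differed by -0.09 in repeated mice, whose other run was not that of the acute mice. The baseline comparisons of the DS, of the LH and of repeated Amy mice lay within a run, as did those between structures. Those of the LCtx, the NAc and abstinent Amy mice crossed runs, where run and experience cannot be told apart. Each experience also came from cohorts of its own in every structure, and abstinent mice were older than naive mice by their dosing and abstinence, so cohort, age and experience cannot be told apart in any baseline comparison, within a run or not. In LH samples, Hcrt and Pmch, the neuropeptides of the lateral hypothalamus, were abundant and none of the 7 hypothalamic markers had a median of 0 in any time group at 0 or 1 hr. Amy samples held them too, at medians of 367 CPM for Hcrt and 622 CPM for Pmch, against 5648 and 7160 CPM in the LH. In the LCtx, NAc and DS, these medians lay between 0.287 and 3.567 CPM. The source of these transcripts in the Amy was not tested.

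In the DS, Tiparp had the largest change of the 4 after cocaine and Plekhf1 rested on the fewest counts. At 0 hr, Tiparp was at 9.49, 17.3, 21.5 and 12.3 CPM in the 4 naive mice, at 16.1, 28.7, 19.1 and 24.8 CPM in the repeated mice and at 25.6, 36.8 and 21.8 CPM in the abstinent mice. At 1 hr, Tiparp was at 58.7, 71.2, 73.4 and 74.2 CPM after acute cocaine, at 67.9, 76.1, 105 and 103 CPM after repeated cocaine and at 99.9, 90.9, 79.6 and 90.3 CPM after challenge. Every mouse at 1 hr was above every 0 hr mouse of its own experience, with log2 changes of the group means of 2.18, 1.95 and 1.68 for acute, repeated and challenge. Of 11256 genes with a mean of at least 5 CPM, 2.51%, 1.61% and 3.46% also had every 1 hr mouse above every 0 hr mouse in these experiences, and nothing is read from the members among them because this contrast chose them. By 2 hr, Tiparp was back within the range of the 0 hr mice or overlapped it in each experience. Arl4d was at 24.4, 31.2, 41.1 and 33.2 CPM in naive mice and at 63.4, 61.3, 78.4 and 72.6 CPM at 1 hr after acute cocaine. In repeated mice, Arl4d was at 44.9, 58.4, 47.6 and 40.9 CPM at 0 hr and at 74.4, 81.8, 77.9 and 96.1 CPM at 1 hr. In challenge mice, Arl4d was at 45.2, 64.2 and 38.1 CPM at 0 hr and at 70.0, 87.3, 79.3 and 69.6 CPM at 1 hr. The groups at 0 and 1 hr did not overlap in any of the experiences, and the log2 changes were 1.08, 0.78 and 0.66. In the run that sequenced all 3 experiences together, with 2 mice per group, they were 1.09, 0.89 and 0.38. At 2 hr, Arl4d overlapped its 0 hr range in each experience, for example at 26.3, 31.7, 21.9 and 31.0 CPM after acute cocaine.

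At 2 hr, the group mean of Gm13889 was still above that at 0 hr after acute cocaine and challenge and in 1 of the 2 cohorts of repeated mice. Gm13889 was at 69.5, 61.0, 61.9 and 62.9 CPM in naive mice, at 192, 148, 158 and 181 CPM at 1 hr after acute cocaine and at 59.1, 110, 116 and 102 CPM at 2 hr. After challenge, Gm13889 was at 71.2, 79.9 and 63.4 CPM at 0 hr, at 146, 185, 156 and 140 CPM at 1 hr and at 113, 157, 112 and 135 CPM at 2 hr. All 4 challenge mice at 2 hr were above the abstinent mice, as in 3.3% of genes, while 1 of the 4 acute mice at 2 hr was below the naive mice. In the repeated experience, Gm13889 was at 44.6, 48.6, 68.3 and 73.0 CPM at 0 hr, and at 72.4, 69.8, 117 and 105 CPM at 1 hr. These groups overlapped, and the mice came from 2 cohorts whose levels differed. In the cohort with the lower levels, Gm13889 went from a mean of 46.6 to 71.1 CPM, a log2 change of 0.60, and in the other from 70.6 to 111 CPM, a log2 change of 0.65. At 2 hr, the mice of the first cohort were at 70.5, 70.9 and 78.8 CPM, a log2 change of 0.64, and those of the other at 79.6 and 54.5 CPM, a change of -0.10.

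Plekhf1 was low and variable in the DS. It was at 6.78, 16.6, 5.29 and 10.1 CPM in naive mice and at 13.6, 14.2, 11.8 and 11.2 CPM at 1 hr after acute cocaine, ranges that overlapped. In repeated mice, Plekhf1 was at 5.58, 6.52, 7.12 and 3.80 CPM at 0 hr and at 8.42, 6.98, 10.96 and 9.48 CPM at 1 hr, which overlapped narrowly. After challenge, Plekhf1 was at 3.23, 5.08 and 3.48 CPM at 0 hr and at 14.1, 7.89, 11.2 and 6.08 CPM at 1 hr, and all 4 mice at 1 hr were above the abstinent mice, as in 3.46% of genes. The log2 changes at 1 hr were 0.47, 0.57 and 1.09. In the 2 mice per group of the run that sequenced all 3 experiences together, the Plekhf1 changes were 0.19, -0.37 and 0.62, so the change in repeated mice turned its direction there, whereas those of Tiparp were 2.06, 1.91 and 1.77. Fos, for comparison, was at 19.0, 11.8, 4.67 and 5.17 CPM in naive mice and at 35.3, 33.5, 40.2 and 55.3 CPM at 1 hr after acute cocaine, and its log2 changes at 1 hr were 2.09, 3.0 and 2.30, or 3.02, 2.60 and 3.24 in the shared run. Over the 3 experiences together, 1.25% of 12918 genes passed the edgeR test in the DS at 1 hr, 1.39% at 2 hr and 0.441% at 4 hr, and nothing is read from the members' own tests there because this contrast chose them.

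**Figure D1:**
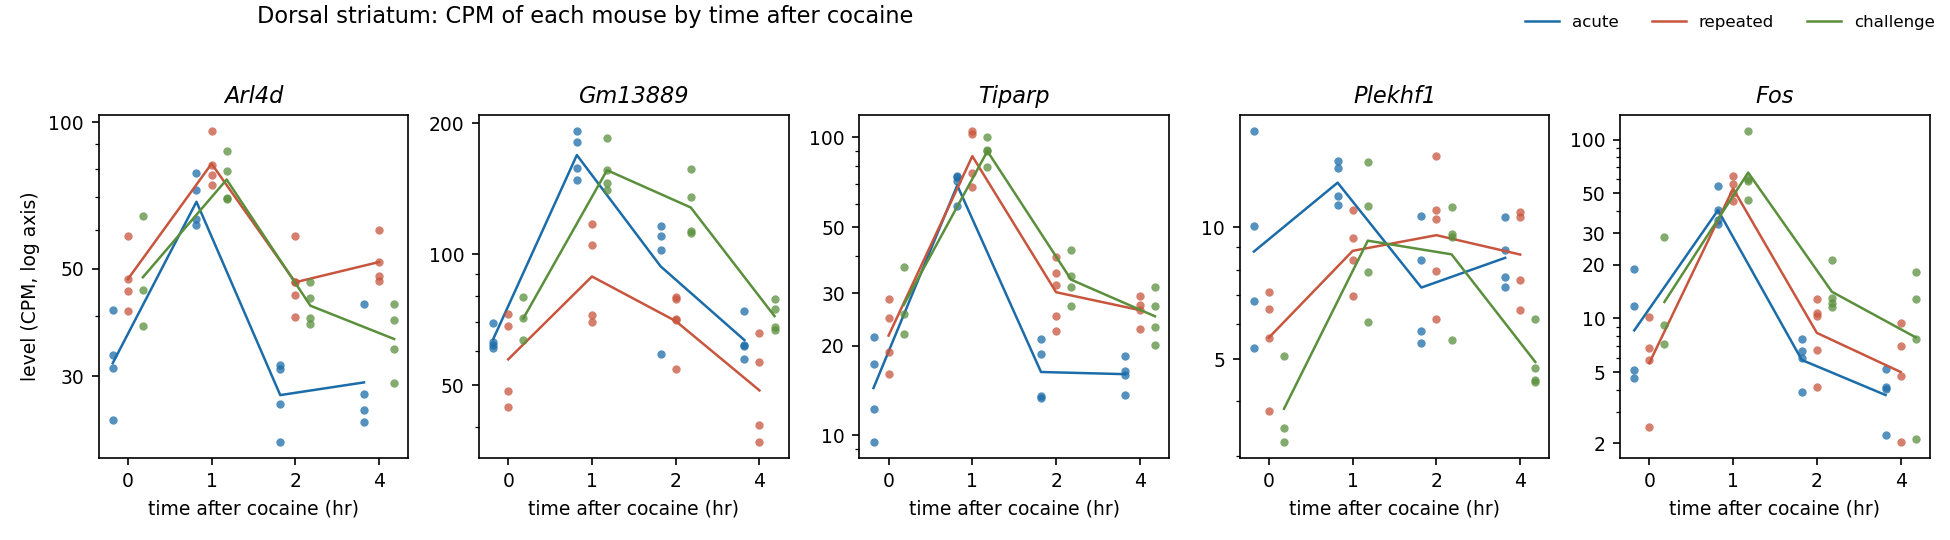
CPM of the 4 genes and Fos in single DS mice (points) at 0, 1, 2 and 4 hr, with the group mean as a line for each experience. Tiparp and Arl4d are highest at 1 hr and near their 0 hr levels at 2 hr, the Gm13889 means at 2 hr lie above those at 0 hr in each experience, with 1 acute mouse below the naive mice, and the Plekhf1 points at 0 and 1 hr overlap in acute and repeated mice.

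Arl4d went from 9.41 to 13.1 CPM in naive LCtx mice to 25.0 and 28.2 CPM at 1 hr after acute cocaine, and from 7.62 and 12.4 CPM to 18.4 and 22.4 CPM in the Amy. Arl4d was highest at 1 hr in 14 of the 15 programs, with log2 changes between 0.52 and 1.55 and a median of 0.98. Its lowest change was in NAc challenge mice, at 18.4 to 34.3 CPM against 15.9 and 21.7 CPM at 0 hr, groups that overlapped.

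Gm13889 was at 94.7 to 116 CPM in naive NAc mice and at 135 to 170 CPM at 1 hr, which did not overlap, as in 1.68% of genes. In the LCtx it went from 34.1 to 39.2 CPM in naive mice to 63.3 and 98.3 CPM at 1 hr after acute cocaine. In LCtx challenge mice it was already at 72.3 and 84.0 CPM at 0 hr and at 82.1 to 101 CPM at 1 hr, groups that overlapped, with a log2 change of 0.27. Across the 15 programs, the Gm13889 change at 1 hr ranged from -0.30 to 1.39, and 1 hr was its highest time in 12. The lowest value was in LH challenge mice.

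Tiparp in the NAc went from 15.8 to 18.6 CPM in naive mice to 22.7 to 30.9 CPM at 1 hr after acute cocaine, and in Amy repeated mice from 5.83 and 7.30 CPM to 16.9 and 18.2 CPM. Neither pair of groups overlapped, as in 1.68% and 17.7% of genes. Its log2 change at 1 hr ranged from 0.02 to 2.18 over the 15 programs, and in LCtx repeated mice, at 6.89 and 12.3 CPM at 0 hr and 10.9 and 11.52 CPM at 1 hr, the groups overlapped. Plekhf1 rested on few reads in the LCtx, 3 to 22 counts per naive mouse, where it was at 1.05 to 6.15 CPM. Its group mean was highest at 1 hr in 9 of the 15 programs, at 2 hr in 4 and at 4 hr in 2, and its change at 1 hr lay between 0.24 and 1.09. Without 1 replicate number, the Plekhf1 change fell to -0.12 in LCtx challenge and -0.001 in LCtx repeated mice. It fell to -0.02 in NAc challenge and in Amy repeated mice, and stayed positive in the other programs. Among the 11256 genes with a mean of at least 5 CPM, the median gene was highest at 1 hr in 3 programs. As many as 14 programs were reached by 0.0977% of genes, 13 (Tiparp) by 0.151%, 12 (Gm13889) by 0.24% and 9 (Plekhf1) by 1.32%. Nothing is read from these shares, because the rise in the structures other than the LH chose the members. Fos was highest at 1 hr in all 15.

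**Figure D2:**
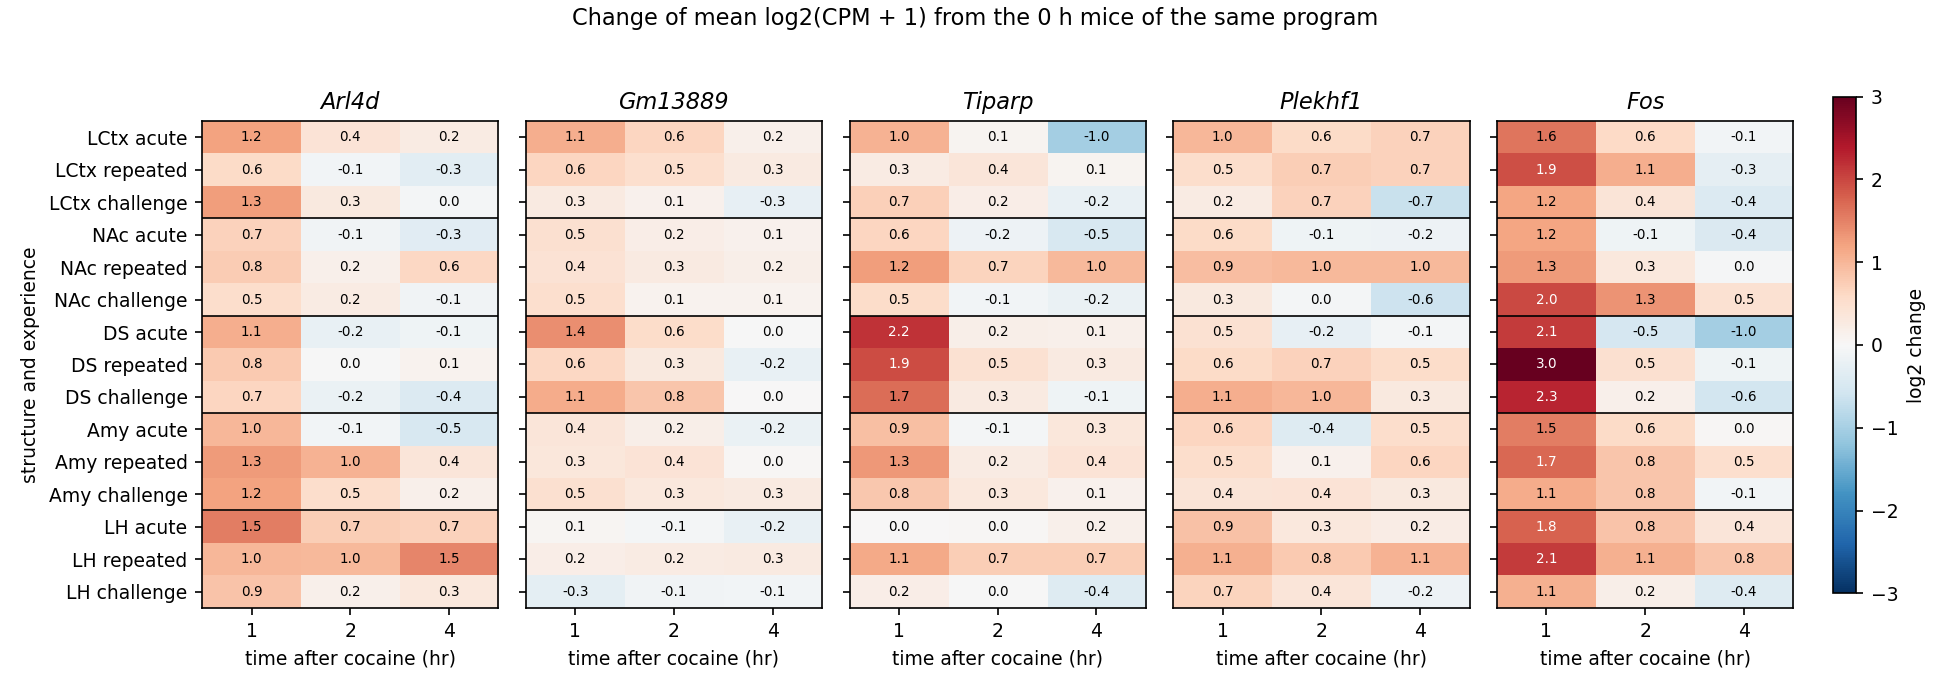
Log2 change of the group mean of log2(CPM + 1) from 0 hr of the same experience, for each gene (panels), program (rows, structure and experience) and time (columns, hr). Fos, Arl4d, Tiparp and Plekhf1 are positive at 1 hr in all 15 programs, while Gm13889 lies between -0.30 and 0.19 in the LH.

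The LH asked which of the members moved in a structure that did not enter their choice. Plekhf1 did, and the other members did not pass the test. Plekhf1 was at 15.95 and 17.1 CPM in naive LH mice and at 26.9 and 35.9 CPM at 1 hr after acute cocaine. In repeated mice it was at 13.2 and 12.1 CPM at 0 hr and at 28.2 and 27.3 CPM at 1 hr. In each experience both mice at 1 hr were above both at 0 hr, as in 16.5% of genes in acute and 20.9% in repeated mice. Over both experiences, Plekhf1 rose by 1.02 on the log2 scale (SE 0.163, adjusted p = 0.000875, edgeR over 13240 genes, n = 4 against 4). Only 8 genes of the 13240 were called at 1 hr, which is 0.0604%, and Plekhf1 was 1 of them, beside Fos at 2.05 (SE 0.257, adjusted p = 1.57e-05), Sgk1, Nr4a1, Junb, Egr1, Nfkbia and Fgfr2.

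At 2 hr, Plekhf1 was at 23.2 and 18.4 CPM after acute and at 23.9 and 21.4 CPM after repeated cocaine, still above the 0 hr mice, as were 20.1% and 21.4% of genes. At 4 hr it was at 15.5 and 24.3 CPM after acute cocaine, which overlapped the naive mice, and at 29.7 and 25.0 CPM after repeated cocaine, which did not, as in 18.1% of genes. The changes of 0.57 at 2 hr (adjusted p = 0.685) and 0.68 at 4 hr (adjusted p = 0.445) did not pass the edgeR test. Nor did those of Arl4d, at 0.68 (adjusted p = 0.896) and 1.01 (adjusted p = 0.9596), or of Fos, at 1.05 (adjusted p = 0.561) and 0.66 (adjusted p = 0.984). Tiparp was at 0.32 (adjusted p = 0.949) and 0.39 (adjusted p = 0.984), and Gm13889 at 0.08 (adjusted p = 0.970) and 0.01 (adjusted p = 0.999). No gene was called at 2 hr, a background of 0%, with 718 genes at an unadjusted p under 0.05 and 0 called by DESeq2. At 4 hr 0.00755% were called, the single gene Sgk1, and DESeq2 called 0. LH challenge mice came from other runs and their 0 hr group is 1 mouse, so they carry no test. There Plekhf1 was at 13.5 CPM at 0 hr, at 22.5 and 21.3 CPM at 1 hr and at 14.4 and 9.88 CPM at 4 hr.

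Arl4d in the LH was at 11.4 and 3.56 CPM in naive mice and 19.0 and 23.0 CPM at 1 hr after acute cocaine, and at 14.7 and 5.0 CPM at 0 hr and 17.2 and 19.95 CPM at 1 hr in repeated mice. The 1 hr mice were above the 0 hr mice of both experiences, as in 16.5% and 20.9% of genes, but the spread at 0 hr was wide, and the change of 1.11 (SE 0.307) had an unadjusted p of 0.00086 and an adjusted p of 0.532 over all genes with edgeR. Without 1 mouse, the Arl4d change ranged from 0.85 to 1.69. Tiparp was at 9.91 and 8.54 CPM in naive mice and 10.7 and 8.17 CPM at 1 hr, which overlapped, and at 7.83 and 2.92 CPM at 0 hr against 11.7 and 11.97 CPM at 1 hr in repeated mice, which did not, as in 20.9% of genes. Its change over both was 0.54 (SE 0.250, adjusted p = 0.989), and 0.30 to 1.01 without 1 mouse. Gm13889 was at 44.7 and 50.9 CPM in naive mice and 45.6 and 54.2 CPM at 1 hr, and its change over both experiences was 0.13 (SE 0.121, adjusted p = 0.989), and 0.05 to 0.19 without 1 mouse. The Gm13889 groups at 0 and 1 hr overlapped in acute and in repeated mice. In challenge mice Gm13889 was at 32.2 and 43.2 CPM at 1 hr and at 46.1 CPM in the 1 mouse at 0 hr. The summed level of the 7 hypothalamic markers was 13942 to 15801 CPM at 0 hr and 12407 to 15854 CPM at 1 hr, and that of the 6 oligodendrocyte markers 17052 to 19053 and 17119 to 18837 CPM. No marker gene was among the 8 called genes.

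**Figure D3:**
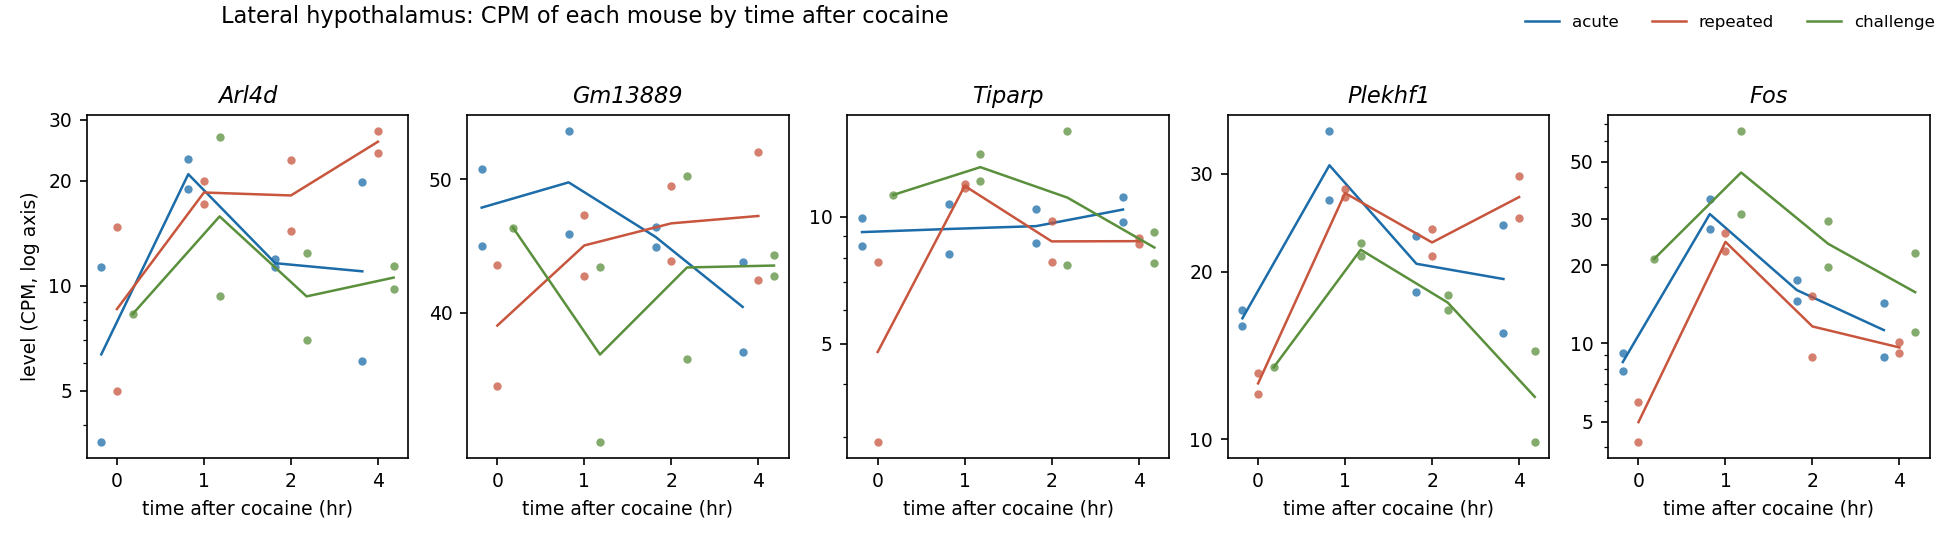
CPM of the 4 genes and Fos in single LH mice (points) at 0, 1, 2 and 4 hr, with lines through the group means of each experience. In acute and repeated mice, all Plekhf1 points at 1 hr (26.9 to 35.9 CPM) lie above the 0 hr points (12.1 to 17.1 CPM), and the Gm13889 points at 0 and 1 hr overlap in both.

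Whether the response at 1 hr depended on the history of exposure was tested in the DS as the difference between the change in repeated or challenge mice and that in acute mice. The Gm13889 change was smaller in repeated than in acute mice by a log2 difference of -0.80 (SE 0.218), with an unadjusted p of 0.00051 and an adjusted p of 0.378 over all genes with edgeR, so it did not pass. The acute and repeated DS mice were sequenced in different runs. In the run that held both, the difference fitted by edgeR was -0.56, and the group means of log2(CPM + 1) changed by 1.44 in acute and 0.86 in repeated mice. Gm13889 in challenge against acute mice differed by -0.29 (SE 0.218, adjusted p = 0.981). The Arl4d change differed by -0.32 (SE 0.211, adjusted p = 0.996) in repeated and by -0.45 (SE 0.216, adjusted p = 0.924) in challenge mice, the latter -0.60 to -0.21 without 1 mouse. For Tiparp the differences were -0.27 (SE 0.272, adjusted p = 0.996) and -0.55 (SE 0.271, adjusted p = 0.947), or -0.54 to -0.07 and -0.83 to -0.31 without 1 mouse. Those of Fos were 0.95 (SE 0.549) and 0.14 (SE 0.515), but in the shared run its change was 3.02 in acute and 2.60 in repeated mice. The same acute mice enter each of these differences. Plekhf1 was listed by the study for challenge alone, so its differences of 0.11 and 0.79 are values with no test. No gene of 12918 was called by edgeR in either comparison, a background of 0% in both, with 649 and 676 genes at an unadjusted p under 0.05, and DESeq2 called 1 and 0.

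In the NAc, LCtx and Amy, the 1 hr changes were compared between the experiences in a joint test per structure. None of the 4 members was called in any, at a background of 0% of 12966 genes in the NAc, 0% of 13447 in the LCtx and 0% of 12890 in the Amy with edgeR, and DESeq2 called no gene either. At an unadjusted p under 0.05 there were 730, 502 and 388 genes. The member nearest to the threshold was Gm13889 in the LCtx, with differences from the acute change of -0.46 in repeated and -0.83 in challenge mice (unadjusted p = 0.0018, adjusted p = 0.848). The other tests of a member had unadjusted p between 0.0686 and 0.965. For repeated and challenge mice in turn, the differences of Arl4d were 0.06 and -0.06 (NAc), -0.65 and 0.13 (LCtx), and 0.34 and 0.38 (Amy), and those of Tiparp were 0.65 and -0.04, -0.81 and -0.15, and 0.47 and 0.02 for the same structures. Those of Gm13889 were -0.05 and 0.07 in the NAc and -0.04 and 0.10 in the Amy, and those of Plekhf1 were 0.45 and -0.06, -0.38 and -0.54, and -0.06 and -0.14. Fos differed by 0.22 and 0.999 in the NAc (unadjusted p = 0.0338, adjusted p = 0.855) and did not pass in the LCtx or Amy either (adjusted p = 1 and 0.999). The LCtx and NAc experiences, and the challenge mice of the Amy, were sequenced in different runs, and run and experience cannot be told apart there.

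At 0 hr, the levels of members were compared between naive mice and mice with a cocaine history, which asks for a shift of the baseline. Gm13889 was raised in the LCtx of abstinent mice. It was at 34.1 and 35.6 CPM in naive mice, at 39.1 and 45.7 CPM in repeated mice and at 82.9 and 72.3 CPM in abstinent mice. Both abstinent mice were above the others, with a log2 change of 1.21 (SE 0.171, adjusted p = 2.77e-06, edgeR, n = 2 against 2). The comparison called 8.36% of 12137 genes, and each group was a run of its own, so run and abstinence cannot be told apart. Other values moved with the groups: the summed level of the 10 blood markers was 9003 and 12631 CPM in naive mice, 379 and 526.02 CPM in repeated mice and 635 CPM in both abstinent mice, and that of the 11 striatal markers was 460 and 565, 934 and 1046, and 871 and 916 CPM. The 7 cortical excitatory markers summed to 4900 and 5120 CPM in naive, 4615 and 5149 CPM in repeated and 4281 and 4315 CPM in abstinent mice. The part of the blood, striatal and cortical markers in the Gm13889 result was not tested.

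Arl4d was raised in the DS of abstinent mice, in a run that held all 3 groups, though each group was a cohort of its own. It was at 57.9 and 48.5 CPM in naive mice, 71.3 and 71.2 CPM in repeated mice and 90.3 and 100.0 CPM in abstinent mice. The log2 change in abstinent mice was 0.85 (SE 0.203, adjusted p = 0.0208, edgeR, n = 2 against 2), at 2.57% of 11465 genes called. That in repeated mice was 0.41 (SE 0.203, adjusted p = 0.406), at 1.33% called. The call in abstinent mice was lost in 4 of the 6 fits that left out 1 mouse (adjusted p between 0.0218 and 0.584), with the replicate number as a block the change was 0.83 (adjusted p = 0.0679), and with every 0 hr mouse of the DS it was 0.57 (adjusted p = 0.0662). DESeq2 gave Arl4d no adjusted p. The 6 oligodendrocyte markers summed to 11104 and 11784 CPM in naive mice, to 10577 and 9954 CPM in repeated mice and to 6796 and 7980 CPM in abstinent mice, and the 6 astrocyte markers to 3267 and 3343 CPM against 2523 and 2569 CPM. The part of these in the Arl4d result was not tested.

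None of the other 34 tests of a member at 0 hr passed with edgeR, nor with DESeq2 where it gave an adjusted p, and 1 of them had an unadjusted p under 0.05, Tiparp in repeated NAc mice at -0.85 (SE 0.293, adjusted p = 0.375). The backgrounds were 1.39% in repeated LCtx mice, 0.0817% and 2.81% in repeated and abstinent NAc mice, 0.26% and 3.47% in repeated and abstinent Amy mice and 1.4% in repeated LH mice. Over these tests, the differences ranged from -0.68 to 0.58 for Arl4d, from -0.24 to 0.29 for Gm13889, from -0.85 to 0.41 for Tiparp and from -1.23 to 0.23 for Plekhf1. In repeated LH mice they were 0.42, -0.24, -0.68 and -0.33 in the same order of genes. In DS abstinent mice, the Plekhf1 difference was -1.23 (SE 0.647, adjusted p = 0.373). The naive and repeated NAc mice came from different runs in each of these fits. Both of these were called when every 0 hr mouse was used, which in the DS also joins libraries of different runs, Tiparp at -0.93 (adjusted p = 0.0491) and Plekhf1 at -1.34 (adjusted p = 0.0143). Fos passed in none of the 9 comparisons, with adjusted p between 0.0603 in abstinent Amy mice, at 0.98 (SE 0.299), and 0.853 in repeated NAc mice.

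Differences in level between structures were tested where 2 structures shared a run. By the animal numbers in the library names, the structures of a pair came from the same mice, 16 in the Amy and LH and 7 in the NAc and LCtx, with 1 more NAc mouse. The values are from the fit that treats them as separate, and with the mouse as a block, chosen after seeing the data, each call of a member held. In the Amy and LH of acute and repeated mice, Plekhf1 was lower in the Amy than in the LH by a log2 difference of -1.41 (SE 0.106, adjusted p = 9.43e-18, edgeR), and at 0 hr the naive mice were at 4.98 and 7.28 CPM in the Amy against 15.95 and 17.1 CPM in the LH. Gm13889 was higher in the Amy, by 0.95 (SE 0.04996, adjusted p = 1.57e-24), with naive mice at 78.8 and 80.3 CPM against 44.7 and 50.9 CPM. Arl4d was lower in the Amy by -0.48 (SE 0.148, adjusted p = 0.00378) and Tiparp higher by 0.35 (SE 0.124, adjusted p = 0.0118). With the mouse as a block the adjusted p was 7.36e-17 for Plekhf1, 3.08e-22 for Gm13889, 0.00338 for Arl4d and 0.00877 for Tiparp. Tiparp lost its call without the mice numbered replicate 2, at 0.22 (adjusted p = 0.223). All 4 members were called, but so were 63% of 13103 genes. The 6 oligodendrocyte markers were all called lower in the Amy, with a median of -1.44. Fos did not pass, at -0.11 (adjusted p = 0.377).

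NAc and LCtx samples of repeated mice also shared a run. Gm13889 was higher in the NAc by 1.15 (SE 0.0724, adjusted p = 2.4e-16, edgeR), at 99.4 and 114 CPM against 39.1 and 45.7 CPM at 0 hr. Plekhf1 was higher by 0.61 (SE 0.243, adjusted p = 0.0369) and Tiparp by 0.51 (SE 0.175, adjusted p = 0.0145), and Arl4d, at 0.16 (SE 0.135, adjusted p = 0.342), did not pass. With the mouse as a block the adjusted p was 2.27e-15 for Gm13889, 0.0483 for Plekhf1 and 0.0175 for Tiparp. Against 47.7% of 13162 genes called, 3 of the 4 members were called. All 6 oligodendrocyte markers were called higher in the NAc, with a median of 2.05. Only Gm13889 kept its call when either replicate number was left out. Without replicate 1, Plekhf1 was at 0.20 (adjusted p = 0.689) and Tiparp at 0.52 (adjusted p = 0.0610), and without replicate 2 Plekhf1 was at 1.12 (adjusted p = 0.00865) and Tiparp at 0.54 (adjusted p = 0.0537). Fos was lower in the NAc, at -1.05 (SE 0.154, adjusted p = 3.68e-07).

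Over all 5 structures, which were sequenced in different runs, the mean naive level of Arl4d was 32.5 ± 6.86 CPM in DS (SD, n = 4), 20.7 ± 2.18 in NAc (n = 4), 11.1 ± 1.88 in LCtx (n = 3), 10.025 ± 3.403 in Amy (n = 2) and 7.46 ± 5.52 in the LH (n = 2). The last 3 structures overlapped. Gm13889 was at 107 ± 9.28 CPM in NAc, 79.6 ± 1.08 in Amy, 63.8 ± 3.84 in DS, 47.8 ± 4.36 in LH and 36.3 ± 2.66 in LCtx. Tiparp was at 17.5 ± 1.25 CPM in NAc, 15.1 ± 5.33 in DS, 10.7 ± 4.38 in Amy, 9.52 ± 2.55 in LCtx and 9.22 ± 0.969 in LH, and each of these overlapped its neighbours. Plekhf1 was at 16.5 ± 0.796 CPM in LH, 9.70 ± 5.05 in DS, 6.75 ± 2.62 in NAc, 6.13 ± 1.62 in Amy and 3.20 ± 2.64 in LCtx, and each overlapped its neighbours, 1 naive DS mouse reaching 16.6 CPM. The oligodendrocyte markers summed to 17663 to 19053 CPM in naive LH mice, 9288 to 11287 in DS, 6717 to 8551 in NAc, 7182 to 7948 in Amy and 1601 to 1984 in LCtx, so that they moved with the Plekhf1 level across structures, and their part in it was not tested. Fos was at 18.9 ± 9.02 CPM in naive LCtx, 10.2 ± 6.72 in DS, 9.64 ± 3.77 in Amy, 8.51 ± 0.96 in LH and 8.12 ± 4.32 in NAc.

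**Figure D4:**
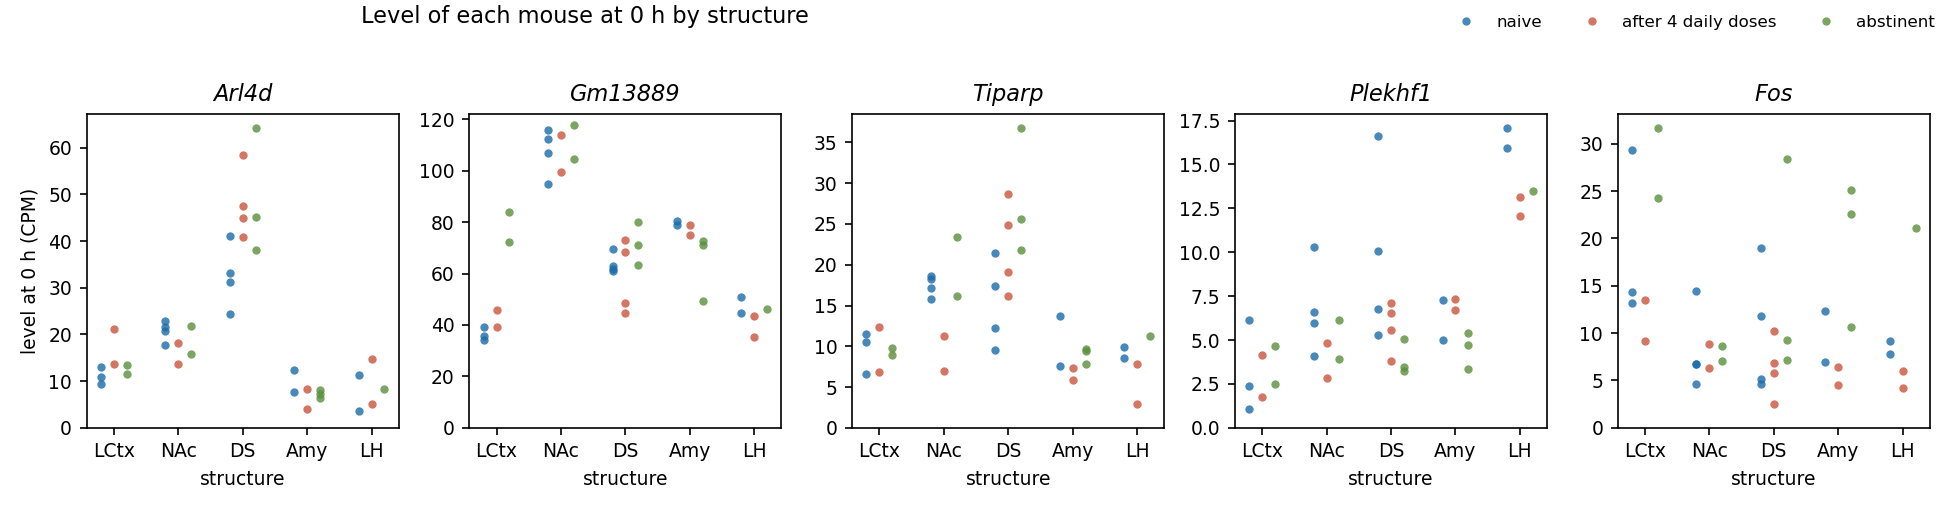
CPM of the 4 genes and Fos at 0 hr in single mice (points), by structure and by state (naive, after 4 daily doses, or abstinent), with 1 library per mouse from the runs used for the time course. Plekhf1 is highest in the LH apart from 1 naive DS mouse, Gm13889 is highest in the NAc (94.7 to 118 CPM), and the abstinent LCtx mice (72.3 and 84.0 CPM) lie above the other LCtx mice in Gm13889.

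The decline after 1 hr was set against that of Fos in the same DS mice, as log2(member CPM + 1) minus log2(Fos CPM + 1). The difference between 2 and 1 hr is given with no test, since the 1 hr levels of these mice also chose the members, and it holds both the larger rise of Fos and any slower decline of the member. From 1 to 2 hr, the relative level went up by 2.18 for Plekhf1, 1.93 for Gm13889, 1.44 for Arl4d and 0.78 for Tiparp, with 12 mice at 1 hr and 13 at 2 hr. From 1 to 4 hr (12 mice), it went up by 2.58, 1.91, 2.05 and 1.195 in the same order of genes. The direction was shared by all 3 experiences for each gene. Tiparp, whose 1 hr rise in the DS was nearest in size to that of Fos, had the smallest change in relative level afterwards. The level nearest to that of Fos was that of Plekhf1, with a mean relative level of -0.04 at 2 hr and 0.34 at 4 hr. That of Tiparp was 1.44 and 1.83. Over all experiences, Gm13889 had its whole gain by 2 hr, at 1.93 against 1.91 at 4 hr. In repeated mice Plekhf1 did so too, at 2.04 against 2.05.

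**Figure D5:**
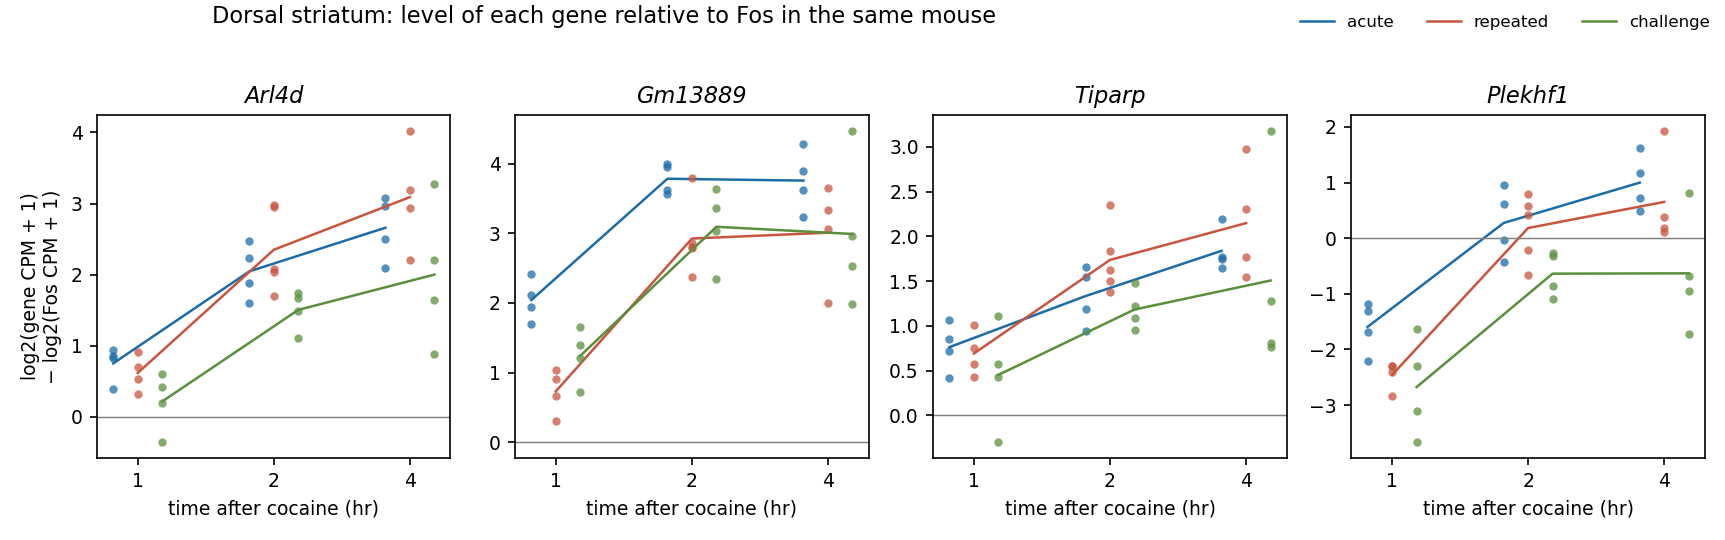
Log2(CPM + 1) of each gene minus that of Fos in the same DS mouse (points) at 1, 2 and 4 hr (evenly spaced), with means by experience as lines. The means over all mice are lowest at 1 hr for each gene, from -2.24 (Plekhf1) to 1.34 (Gm13889), and higher at 2 and 4 hr.

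Mice of the same structure, experience, time and run also differ from each other, and these deviations did not enter the choice of genes. For each member and structure, the deviation of log2(CPM + 1) from its group mean was related to that of Fos in the same mice. None of the 20 relations passed adjustment in a permutation test of Pearson's r or Spearman's rho with these deviations. The Gm13889 deviation in the DS had r = 0.395 (permutation p = 0.00322, adjusted p = 0.0644) and rho = 0.405 (permutation p = 0.00599, adjusted p = 0.0769) over 48 mice. Its r was 0.370 and 0.407 within the 2 runs of these mice and 0.399 without the 2 mice farthest from the median Fos deviation, and 1.93% of 11256 genes had a higher r with Fos. The repeated DS mice came from 2 cohorts, and with deviations taken within cohorts, an alternative chosen after seeing the data, its r was 0.396 (permutation p = 0.00093, adjusted p = 0.0186), which passed, and rho was 0.445 (permutation p = 0.00277, adjusted p = 0.0554), which did not. For Tiparp in the DS, r was 0.342 (adjusted p = 0.398) and rho 0.453 (adjusted p = 0.0769), but r was -0.16 in the run of acute mice and 0.558 in the other. For Tiparp in the Amy, r was 0.489 (permutation p = 0.0223, adjusted p = 0.223) and rho 0.578 (permutation p = 0.0126, adjusted p = 0.084) over 30 mice, and r was 0.724, 0.812 and 0.314 within the 3 runs. Plekhf1 in the DS had r = 0.071 and Arl4d 0.234, with -0.25 and 0.493 for Arl4d within the 2 runs, and neither was near the threshold. The 2 values of a point share their library, its depth and its dissection.

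Over the 45 changes of the group means (5 structures, 3 experiences, and 1, 2 and 4 hr against 0 hr), which share their 0 hr groups, the gene most like Arl4d was Fos itself, with a Pearson r of 0.70, followed by Ddit4 (0.68), Sgk1 (0.67), Nfkbia (0.66) and Sox8 (0.65). Tiparp was most like the orphan nuclear receptor gene Nr4a1 (0.86), then Junb (0.81), Egr4 (0.78), Egr2 (0.78) and Dusp6 (0.77). Gm13889 was most like Irs2, an adaptor of insulin receptors, at 0.81, then Egr4 (0.78), Midn (0.77), Fosl2 (0.76) and Egr2 (0.75), and its r with Fos was 0.54. The genes nearest to Plekhf1 were Oaz1 (0.65), Cops2 (0.58), Cox7a2l (0.58), Arl4a (0.57) and Polr3e (0.55), and its r with Fos was 0.42. The r between members ranged from 0.28 for Arl4d and Gm13889 to 0.62 for Gm13889 and Tiparp. These are descriptions over group means with no test.

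Most relatives and partners of the members were not called in the DS, as most genes were not, with 1.25% of all genes called at 1 hr. Genes not called may still have changed by small amounts. Of the 16 other ARF-like and ARF GTPases listed, 1 rose at 1 hr, Arl5b, a GTPase of the trans-Golgi network, by 1.25 (SE 0.117, adjusted p = 1.49e-12, edgeR). Arl5b was also raised at 2 hr, by 0.88 (SE 0.118, adjusted p = 3.78e-07), and Arf4 at 4 hr by 0.26 (SE 0.0585, adjusted p = 0.0111). The closest paralogs of Arl4d, Arl4a at -0.07 (adjusted p = 0.879) and Arl4c at -0.17 (adjusted p = 0.666) at 1 hr, did not pass, and none of the 8 cytohesins and other ARF6 exchange factors was called at any time. Of 11 genes of the aryl hydrocarbon receptor pathway, 9 were tested and 0 called, with Ahr itself at -0.37 (adjusted p = 0.556) at 1 hr. None of the 11 tested PARP genes was called, Parp6 being at -0.05 at 1 hr (adjusted p = 0.882), nor any of the 15 genes of endosomal FYVE proteins and PI3P, with the Plekhf1 paralog Plekhf2 at 0.20 (adjusted p = 0.696). Over the 3 times, 1, 3, 5 and 1 of the tests in these 4 lists had an unadjusted p under 0.05. By contrast, all 11 other genes of the shared early program, Fos included, rose at 1 hr, with a median of 2.14 against -0.01 over all genes, but that list was chosen by the study on these samples and is no independent evidence. At 2 hr, 5 of those 11 were still raised, Egr2, Egr4, Fosb, Nr4a1 and Per1, and at 4 hr only Fosb, at 1.15 (SE 0.183, adjusted p = 0.000113).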

How the data were processed

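Libraries of 3′ RNA-seq were made from dissected brain structures of single mice. The authors aligned the reads with STAR to GRCm38, collapsed them by unique molecular identifier and counted them per gene with HTSeq, and the deposited table holds these counts, with no normalization. Its 194 columns are 166 samples, 28 of which were sequenced in 2 runs. 197 of the 19363 genes had no count. The members and all gene lists were chosen with earlier results of these data known.

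Levels are counts scaled to an equal library total (CPM). Time courses used 1 library per mouse, the LH tests used the sum of the libraries of a mouse, and baseline tests used the libraries that the study marks for baseline shifts (in NAc and Amy with the other abstinent mice added), summed where a mouse had several. Counts were tested with edgeR 4.0.16 (TMM scaling, filterByExpr, quasi-likelihood F test) in R 4.3.3, with Benjamini-Hochberg adjustment over all genes tested. A gene was called at an adjusted p under 0.05, and in baseline comparisons also at a fold change over 1.2. Relations to Fos used two-sided permutation tests (100000 resamples within groups, pseudocount 1 CPM, scipy 1.17.1), adjusted over 20 relations. Fos-relative differences were permuted too, but no p is given for them because the 1 hr levels chose the members. The scripts were tested on simulated counts. Alternatives were RLE scaling, a filter of 10 counts in all, DESeq2 1.42.0, another pseudocount (0.1), leaving out each mouse of the times tested (in the NAc, LCtx and Amy responses and between structures, each replicate number; in the DS, mice at 0 and 1 hr), the runs shared by experiences, every 0 hr mouse, cohort as a covariate and the replicate number as a block. A mouse block for structure levels and deviations within cohorts were chosen after seeing the data.

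The text names all 4 members and Fos in every comparison (members not called at baseline mostly by their range), the 5 genes most like each member among those of at least 5 CPM, and from lists of related genes those called and the nearest relatives. The labels do not say that replicate numbers mark related animals. Deviations of same-numbered DS repeated mice correlated at 0.12 to 0.20, where the numbers coincide with cohorts, and in every other group at least 1 pair was at 0.1 or below. Nothing says whether mice of a group shared a litter or cage, and p-values measure the spread between them.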

Additional observations from a re-analysis of the deposited data

Results flagged for a closer look

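Of the 84 sets of 4 to 10 mice of 1 gene and group that were examined for a mouse far from the others, 1 held such a mouse. Plekhf1 in the Amy at 2 hr after challenge was at 8.519 CPM in the highest of 4 mice, against 5.774 CPM in the nearest and 5.384 CPM in the lowest, so that the gap took a share of 0.8755 of the whole range. Chance marks about 1 in 20 such sets.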

How the results depend on the processing

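The LH rise of Plekhf1 at 1 hr (0.91 to 1.12 without 1 mouse, adjusted p 0.00085 to 0.0260) and the raised Gm13889 in abstinent LCtx mice (1.12 to 1.30 without 1 mouse) passed in every alternative run. The replicate block changed 1 call of a member: in abstinent DS mice the number called went from 1 to 0, Arl4d being at 0.83 (adjusted p = 0.0679). Without 1 mouse that number ranged from 0 to 1, and DESeq2 gave Arl4d no adjusted p. With every 0 hr mouse, 1 member was called in repeated NAc mice, in place of 0, and Plekhf1 was called in abstinent DS mice in place of Arl4d. In NAc against LCtx, 1 member was called without replicate 1 and 2 without replicate 2, in place of 3. Without the 2 mice farthest from the median Fos deviation, 1 of the 20 relations to Fos was called, Tiparp in the Amy at 0.649 (adjusted p = 0.0346), and with deviations within cohorts, chosen after seeing the data, 1 was called, Gm13889 in the DS at 0.396 (adjusted p = 0.0186). The relation of Plekhf1 to Fos in the Amy, 0.0027, went to -0.0101 with a pseudocount of 0.1 CPM. The cause of these moves was not tested. Of the 34 baseline tests not called, 15 changed sign under at least 1 alternative. Counts over all genes moved by over 1.5 times as follows. With DESeq2, LH went from 8 to 4 at 1 hr and from 1 to 0 at 4 hr, LCtx from 169 to 95 (repeated) and 1015 to 532 (abstinent), and the DS repeated-acute difference from 0 to 1. With the filter of 10 counts, LH went from 0 to 1 at 2 hr and from 1 to 3 at 4 hr. With the replicate block, LH at 4 hr went to 2, NAc from 10 to 2 (repeated) and 344 to 18 (abstinent), DS repeated from 153 to 396, Amy repeated from 32 to 193 and LH repeated from 168 to 421. With every 0 hr mouse, LCtx repeated went to 267, NAc to 152 and 1196, and DS to 1080 (repeated) and from 295 to 1749 (abstinent). In the shared DS run the time contrasts called 61, 15 and 10 genes in place of 162, 179 and 57, and with a cohort covariate the DS challenge-acute difference called 2 in place of 0. Without 1 mouse (or, between LCtx, NAc or Amy experiences, 1 replicate number), the LH called 4 to 10 genes at 1 hr, 0 to 7 at 2 hr and 0 to 7 at 4 hr. At baseline, in repeated and abstinent mice, the LCtx called 109 to 177 and 487 to 1088, the NAc 2 to 33 and 79 to 681, the DS 32 to 206 and 53 to 371, and the Amy 1 to 182 and 63 to 522, and repeated LH mice gave 89 to 280. The DS repeated-acute and challenge-acute differences called 0 to 16 and 0 to 15 genes, and the joint tests 0 to 38 in the LCtx, 0 to 1 in the NAc and 0 in the Amy. With 1 to 5 mice a group, and 3 to 22 counts of Plekhf1 in naive LCtx mice, small changes were not detectable.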
